A study of Homo sapiens with 3 samples.

Results

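Eph receptors and ephrins were followed in PANC-1, an established human pancreatic carcinoma line, as 10 named genes of the 51136 in the count table: the ephrins EFNA1, EFNA4, EFNA5, EFNB1 and EFNB2 and the receptors EPHA2, EPHA4, EPHB2, EPHB3 and EPHB4. The genes were taken by symbol from the deposited table, and each of the 10 was found. RNA-seq was run on 3 libraries, 1 from untreated cells (control), 1 from cells given 200 μM ginsenoside Rg3, a saponin of ginseng, for 24 h (Rg3), and 1 from cells given 50 μM tamoxifen, an antiestrogen, for 24 h (TAM). A vehicle for the control cells was not given in the sources used here, and neither was the number of cultures behind a library. The table held 11300766 counted reads for control, 12861693 for Rg3 and 11321442 for TAM.

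Eph receptors are receptor tyrosine kinases that bind ephrins on the surface of neighbouring cells. Ephrin-A ligands are held in the membrane by a lipid anchor and mainly bind EphA receptors, whereas ephrin-B ligands span the membrane and mainly bind EphB receptors, with EPHA4 also binding ephrin-B. Receptor and ligand can each signal into the cell that carries it, and the pathway is known for sorting cells at tissue boundaries, for setting arteries (EFNB2) apart from veins (EPHB4), and, through EPHA2, for its high level in many carcinomas.

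Because each condition had 1 library, no difference had a replicate check, and no p-value is given. Tests on the reads of pairs of libraries, or with an assumed spread, served only as alternative rules for a call, and compare the libraries rather than the conditions. A difference was described by the log2 fold change after TMM scaling, a correction for unequal library composition, with an exact 95% interval (Clopper-Pearson) that covers counting error only. A gene was called lower or higher past a fold of 0.667 or 1.5, provided that 1 of the 2 libraries had at least 10 counts. EPHA4 did not reach that minimum, so that 9 of the 10 members were compared. A lower value in a library can mean fewer cells with the mRNA or less mRNA per cell, which cannot be told apart.

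2 properties of the libraries touch each value below. Relative to scaling by library totals, TMM moved every log2 fold change by -0.14 in Rg3 and by 0.21 in TAM. Across genes reaching 50 counts (genes are no independent replicates), the log2 fold change went down with the GC content of the transcript in Rg3 (Spearman correlation -0.81, 11583 genes) and up with it in TAM (0.51, 11022 genes). With transcript length, the correlation was 0.20 in Rg3 and -0.45 in TAM. In 8 of the 10 members, GC content was above the median of these genes, with a range from 43.2% for EFNA5 to 62.2% for EPHB3. Values with a smooth trend on GC content and transcript length removed are therefore given as well, and the cause of the trend was not tested. The cell line label was checked on 6 epithelial markers, which summed to 27560 counts in control, 15671 in Rg3 and 28112 in TAM. KRT8 and KRT18 made up most of these sums, and the markers did not move together: from control to TAM, KRT7 went from 248 to 345 counts, KRT19 from 665 to 181, EPCAM from 26 to 8 and CDH1 from 76 to 5. Of 15 markers of endothelium, leukocytes, fibroblasts, acini and islets, 7 were at 0 in every library and 1, CD68, was above 4 counts, with 615, 426 and 1100 in control, Rg3 and TAM. The part of these marker levels in the results was not tested.

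EPHA2 was the main Eph transcript of these cells in every library. It had 5125 counts in control, 4756 in Rg3 and 6914 in TAM, and stood at percentile 95.6, 94.7 and 96.4 of genes with a gene model and at least 10 counts in any library when levels were taken per kilobase of the longest transcript. Expressed as CPM per kilobase (CPM being the count relative to the TMM-scaled library size), EPHA2 was at 113 in control (95% counting interval 110 to 116), EPHB4 at 23.2 (22.01 to 24.50) and EPHB2 at 11.0 (10.4 to 11.6). The ephrins EFNA4 and EFNA1, at 12.6 and 12.2 on this scale, lay between the 2 EphB receptors, and the intervals of EFNA4, EFNA1 and EPHB2 overlapped. EFNB1 (3.99) and EFNA5 (2.89) came next. EPHB3 (1.19) and EFNB2 (1.13) were the lowest members with reads in control and did not differ from each other beyond counting error. The longest EPHB2 transcript has 10816 bases, against 5058 for EPHB4. Per coding kilobase, EPHB4 stayed above EPHB2 in control (39.7 against 37.5). It lay below EPHB2 on that scale in Rg3 (22.6 against 24.2) and TAM (41.3 against 44.5). No intervals were computed per coding kilobase, so that these small differences in order were not checked against counting error.

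In Rg3 the level order of the first 5 members was the same as in control, with EPHA2 at 83.3 on this scale, EPHB4 at 13.2 and EPHB2 at 7.09, but the interval of EFNA4 overlapped those of EPHB4 and EFNA1. In TAM, EPHA2 reached 175 (171 to 179), EPHB4 was at 24.2 and EPHB2 at 13.0. EFNA1 came after EPHB2 in TAM, with 7.98 (6.77 to 9.35) on this scale. EFNB2, at 0.322 (0.184 to 0.523), was the lowest member with at least 10 counts in that library. EPHA4, a receptor for both ephrin classes, had 0, 1 and 3 counts in control, Rg3 and TAM. The 0 in control allows up to 3 counts, or 0.261 CPM, so that no difference in EPHA4 was detectable at this depth.

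**Figure D1:**
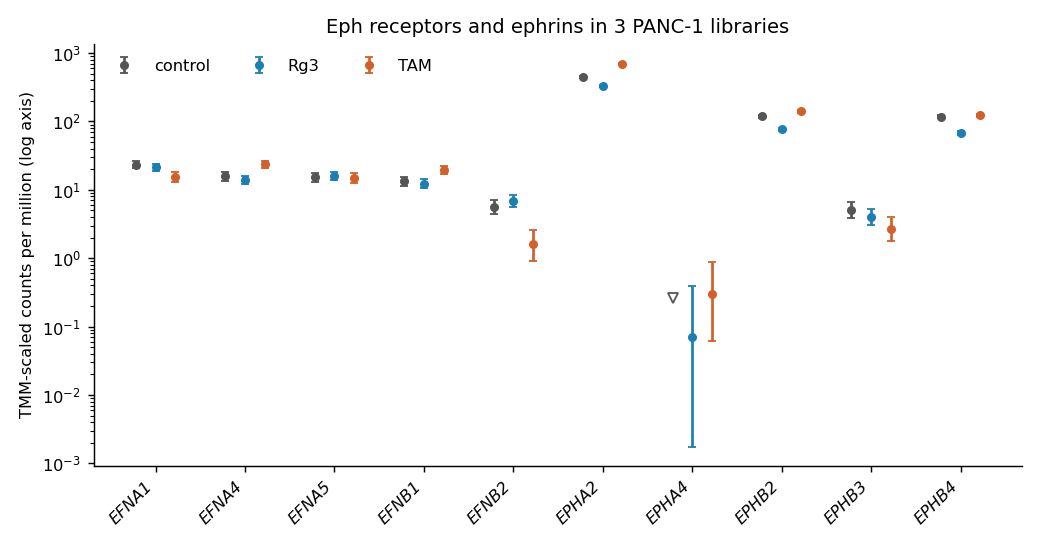
TMM-scaled CPM (log axis) of the 10 members in the control, Rg3 and TAM libraries, 1 library per condition, with exact 95% Poisson intervals for counting error; the open triangle marks the limit of 0.261 CPM that a count of 0 allows for EPHA4 in control. EPHA2 lies above the other members in each library, and EFNB2 in TAM lies below its values in control and Rg3.

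The reference models place the members on several chromosomes of GRCh38. EFNA4 (chromosome 1, 155063731 to 155069553, plus strand) and EFNA1 (chromosome 1, 155127460 to 155134857, plus strand) are near neighbours, and EPHA2 (16124337 to 16156087, minus strand) and EPHB2 (22710839 to 22921500, plus strand) lie on the same chromosome. EFNB2 is on chromosome 13 (106489731 to 106535662, minus strand), EFNA5 on chromosome 5 (107376889 to 107670895, minus strand), EFNB1 on the X chromosome (68828997 to 68842147, plus strand) and EPHA4 on chromosome 2 (221418027 to 221574202, minus strand). EPHB3 is on chromosome 3 (184561784 to 184582409, plus strand) and EPHB4 on chromosome 7 (100802565 to 100827521, minus strand). Reads of EFNB2 need care, because exons of AL138689.2 on the opposite strand cover 26.2% of its exon bases and the use of strand in the counting is not stated. EFNA4 shares 11.5% of its stretches of 50 bases with AL691442.1, a gene model on the same strand that covers 44.7% of the exon bases of EFNA3 too, so that reads of EFNA4 and EFNA3 are uncertain where the counting could split them. For the other members, shared stretches came to at most 0.255%, and exon overlaps to at most 4.67% (EPHA4).

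The 250 bases before the RefSeq start site are printed for EFNB2 and EPHB3, the members furthest below control in TAM, and for EPHA2, the member furthest above it. Capitals mark exact matches, on either strand, to the GC box of Sp1 proteins, which was searched as GGGCGG. They also mark the TATA box, for which the letters TATAAA were used, and the site of TEAD factors, for which the search string was GGAATG. The last kind of match marked is the cAMP response element, searched as TGACGTCA.
EFNB2, chr13:106535663-106535912 of GRCh38.p14, minus strand: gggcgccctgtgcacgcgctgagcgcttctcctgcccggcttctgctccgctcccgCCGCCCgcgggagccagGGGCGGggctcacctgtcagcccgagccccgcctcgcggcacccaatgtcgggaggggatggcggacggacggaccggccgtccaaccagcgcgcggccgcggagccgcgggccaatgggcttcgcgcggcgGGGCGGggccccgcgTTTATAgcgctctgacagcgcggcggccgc
EPHB3, chr3:184561535-184561784 of GRCh38.p14, plus strand: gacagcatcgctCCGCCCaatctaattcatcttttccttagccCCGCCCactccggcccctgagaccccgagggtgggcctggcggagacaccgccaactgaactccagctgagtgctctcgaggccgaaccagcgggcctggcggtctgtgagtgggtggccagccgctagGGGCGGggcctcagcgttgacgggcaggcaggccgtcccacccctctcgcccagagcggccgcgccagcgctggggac
EPHA2, chr1:16156070-16156319 of GRCh38.p14, minus strand: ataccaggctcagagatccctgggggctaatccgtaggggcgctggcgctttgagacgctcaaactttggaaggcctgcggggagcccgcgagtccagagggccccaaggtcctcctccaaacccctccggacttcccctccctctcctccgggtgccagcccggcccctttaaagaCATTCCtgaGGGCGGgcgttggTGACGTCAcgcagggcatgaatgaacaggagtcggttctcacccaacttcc

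GGGCGG was found in the window of each of the 10 members and in 42.3% of the 27305 genes with a promoter in the table. Matches to the other motifs were few. TATAAA was found in the EFNB2 window alone (11.1% of all), TGACGTCA (1.77% of all) and GGAATG (11.9% of all) in the EPHA2 window alone, and TGGGAA, the core of RBPJ sites, whose letters can overlap those of GGAATG, in the EFNB1 window alone (21.1% of all). TGACTCA (AP-1, 4.16% of all) and CACGTG (E-box, 6.49% of all) were found in none of the 10 windows. CpG pairs numbered 40 in the window of EFNB2, 42 in that of EPHB2 and 41 in that of EFNA5, against a median of 11 over all genes, and the fewest, 9, were in that of EPHA4. These matches describe the letters of the windows only.

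With Rg3, 2 of the 9 compared members were lower than in control past the fold limit, where 19.3% of the 16487 genes compared were lower. Both were EphB receptors. No member was higher, where 25.0% of all genes were. The median log2 fold change of the members was -0.18, against 0.04 over all genes compared, and 7 of 9 values were below 0. After removal of the trend on GC content the members had a median of 0.31, and none of them passed either limit, where 10.1% of all genes were lower and 8.59% higher.

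EPHB4, the receptor of EFNB2, had 1349 counts in control, 964 in Rg3 and 1218 in TAM. The Rg3 library was thus the low one, at 66.9 TMM-scaled CPM against 117 in control and 122 in TAM. The log2 fold change with Rg3 was -0.81 (95% counting interval -0.93 to -0.69), or -0.67 with library totals. With the trend removed it was -0.22, within the fold limit. EPHB2, a receptor for ephrin-B ligands, had 1362, 1104 and 1402 counts in control, Rg3 and TAM, with Rg3 again the low library. Its log2 fold change with Rg3 was -0.63 (-0.75 to -0.51), which library totals put at -0.49 and removal of the trend at -0.32, both within the limit. EPHB3, the third EphB member, had 58 counts in each of control and Rg3. That gave a log2 fold change of -0.33, with an interval (-0.88 to 0.22) that reached 0.

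EPHA2 was also lower in Rg3 than in control, but within the limit, with a log2 fold change of -0.43 (-0.49 to -0.38). Without the trend, the sign turned to 0.14. The 5 ephrins lay within the limit, and each of their intervals reached 0. EFNB2, with 65 counts in control and 100 in Rg3, had a log2 fold change of 0.29 (-0.17 to 0.77). The values were -0.14 for EFNA1, -0.18 for EFNA4, 0.06 for EFNA5 and -0.12 for EFNB1. With the trend removed they ranged from -0.45 for EFNA5 to 0.47 for EFNB1, so that the sign turned for 4 of the 5 ephrins, the exception being EFNB2 (0.36).

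**Figure D2:**
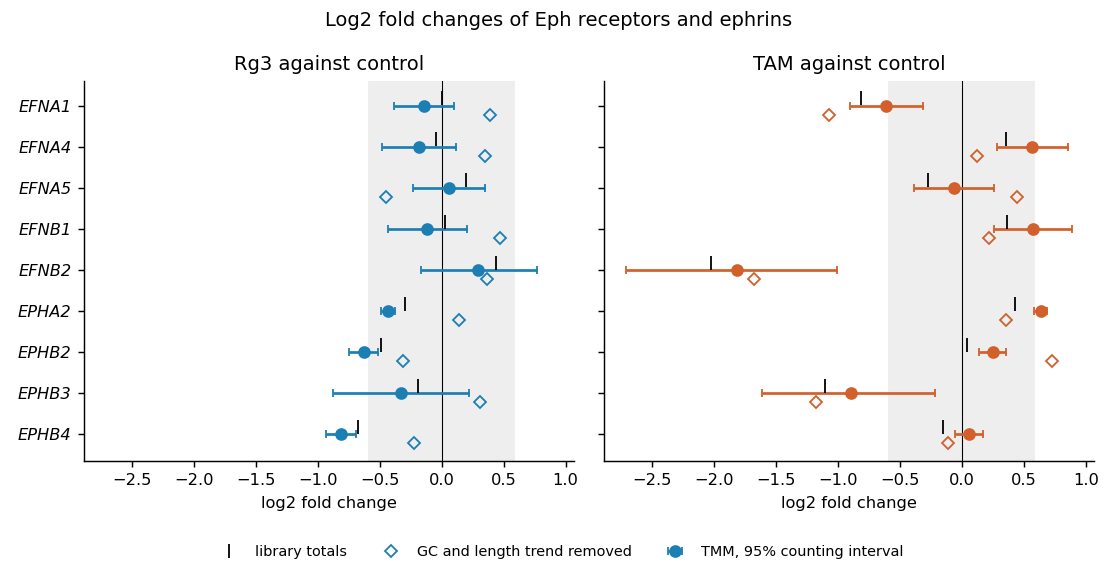
Log2 fold changes of the 9 compared members in Rg3 (left) and TAM (right) against control; filled circles are TMM-scaled values with exact 95% counting intervals, black ticks are values with library totals, open diamonds are values without the GC and length trend, and the grey band is the range within 1.5-fold. EFNB2 in TAM is at -1.82 and stays outside the band with each scaling, whereas EPHB2 and EPHB4 in Rg3 move into the band once the trend is removed.

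With TAM, 3 of the 9 compared members were lower than in control and 1 was higher, where 23.5% of the 16079 genes compared were lower and 17.4% higher. Those lower were EFNA1, EFNB2 and EPHB3, and the higher one was EPHA2. The median over the members was 0.06, against -0.02 over all genes. The same 3 genes were lower after the trend was removed, and EPHB2 then took the place of EPHA2 as the only higher member, where 15.8% of all genes were lower and 13.0% higher.

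EFNB2, the transmembrane ligand of EPHB4, had the largest log2 fold change of the members. It had 65 counts in control, 100 in Rg3 and 16 in TAM. TAM was the low library, at 1.61 TMM-scaled CPM (0.919 to 2.61) against 5.66 (4.37 to 7.22) in control and 6.94 (5.65 to 8.45) in Rg3. Its log2 fold change with TAM was -1.82 (-2.71 to -1.01), a fold of 0.284. Library totals gave -2.03 and removal of the trend -1.68. With a coefficient of variation of 0.2 between cultures, a value that was assumed and not measured, EFNB2 was the only member that edgeR's exact test still called with TAM against control, and with 0.4 none was called.

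EPHB3 had 58 counts in control, 58 in Rg3 and 27 in TAM, which made TAM the low library here too. The log2 fold change was -0.90 (-1.61 to -0.21), or -1.18 with the trend removed. EFNA1, a ligand of EPHA2, had 269, 306 and 153 counts in control, Rg3 and TAM. Its log2 fold change with TAM was -0.61 (-0.90 to -0.32), just past the limit of 0.585, and with DESeq2's size factors it was -0.58, just within it. The GC-rich EFNA1 transcript (58.5%) lay against the trend, which stood at 0.46 for its GC content and length, and its value with the trend removed was -1.07. In the same way the trend stood at 0.28 for EPHB3, while for EFNB2 (50.0% GC) it was -0.14.

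EPHA2 was higher in TAM than in both other libraries, at 695 TMM-scaled CPM against 446 in control and 330 in Rg3. Its log2 fold change against control was 0.64 (0.59 to 0.69), close to the fold limit, and library totals (0.43) or removal of the trend (0.35) put it within the limit. Among the ephrins, EFNB1 had 152 counts in control, 176 in Rg3 and 196 in TAM and EFNA4 had 182, 201 and 234. Their log2 fold changes with TAM, 0.57 (0.26 to 0.89) and 0.57 (0.28 to 0.86), fell just short of the limit, which both passed with DESeq2's size factors (0.61 and 0.60). With the trend removed they were 0.22 and 0.12. EFNA5, a GC-poor member (43.2%), had 177, 231 and 147 counts, and its log2 fold change with TAM was -0.06 (-0.39 to 0.26). EPHB4 differed little between control and TAM, with a log2 fold change of 0.06 (-0.05 to 0.17). EPHB2 stood at 0.25 (0.14 to 0.36), and at 0.72 with the trend removed. The trend was -0.48 for its GC content (55.6%) and its length of 10816 bases.

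**Figure D3:**
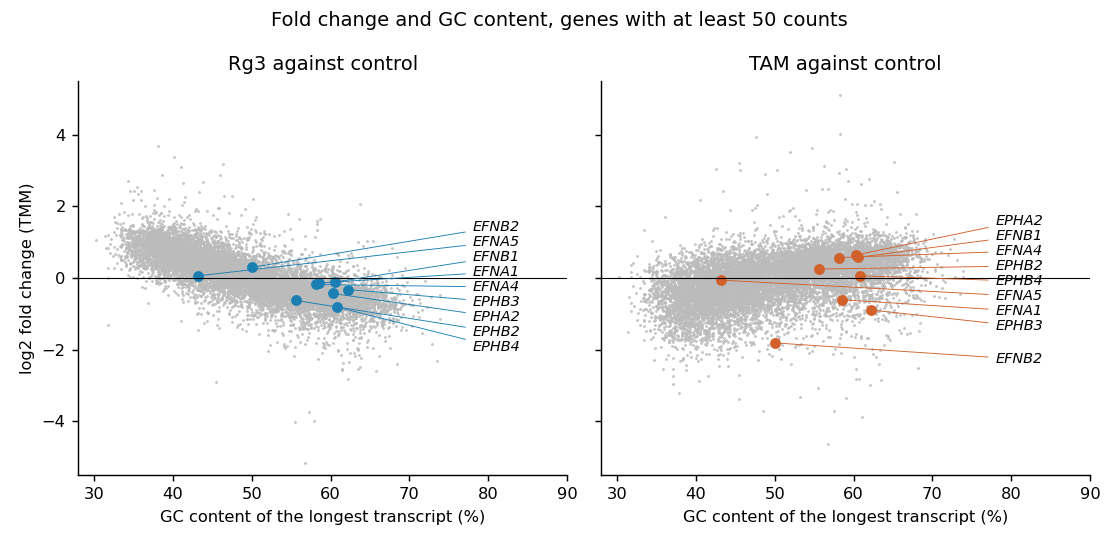
Log2 fold change against the GC content of the longest transcript for genes reaching 50 counts in 1 of the libraries compared (grey points) and the 9 compared members (coloured points), for Rg3 (left) and TAM (right) against control. EPHB2 and EPHB4 lie inside the cloud of GC-rich genes in Rg3, while EFNB2, EFNA1 and EPHB3 lie in the lower part of the cloud at their GC content in TAM.

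When the treated libraries were set against each other, at doses of 200 μM and 50 μM that do not match, 1 member was lower in TAM than in Rg3 and 5 were higher, where 35.1% of the 16493 genes compared were lower and 30.0% higher. EFNB2 was the lower one, with a log2 fold change of -2.11 (-2.97 to -1.34). The higher ones were EPHA2 (1.07), EPHB2 (0.88), EPHB4 (0.87), EFNA4 (0.75) and EFNB1 (0.69). With library totals, 3 members were lower (EFNA1, EFNB2 and EPHB3) and 1 was higher (EPHA2). EPHB2 (0.53), EPHB4 (0.52), EFNA4 (0.40) and EFNB1 (0.34) were then within the limit. The median log2 fold change went from 0.69 to 0.34 over the members and from -0.08 to -0.42 over all genes compared. The shares of all genes past the limit were not counted with library totals. Removal of the trend left EFNB2 at -2.01 and EPHB2 at 0.96, put EPHA2 at 0.22 and EPHB4 at 0.11, and turned EFNA4 and EFNB1 to -0.25 and -0.24. EFNA1 (-1.46) and EPHB3 (-1.48) were then lower past the limit, from -0.47 and -0.57 before, and EFNA5 was higher (0.94), where 18.9% of all genes were lower and 19.1% higher. The 3 comparisons share libraries and are not independent of each other.

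The share of each gene within a library does not depend on the scaling between libraries. Of the reads on the 5 receptors, EPHA2 took 64.9% in control (95% interval 63.9 to 66.0), 69.1% in Rg3 (68.0 to 70.2) and 72.3% in TAM (71.4 to 73.2). These intervals do not overlap, but they cover counting error only, and a share is not corrected for the GC and length trend. With that trend removed, the log2 fold changes of EPHA2, EPHB2, EPHB4 and EPHB3 with TAM were 0.35, 0.72, -0.11 and -1.18. With Rg3 they were 0.14, -0.32, -0.22 and 0.31. EPHB4 took 17.1%, 14.0% and 12.7%, and EPHB2 took 17.25%, 16.04% and 14.66%. A share depends on the other genes in the sum: in TAM EPHA2 had more reads than in control, while the log2 fold change of EPHB4 was 0.06 (-0.05 to 0.17). Of the ephrin reads, EFNA1 took the largest share in control (31.8%) and Rg3 (30.2%), whereas in TAM EFNA4 did (31.4%) and EFNA1 took 20.5%. That change of order holds for reads, which are not corrected for transcript length. As CPM per kilobase, EFNA4 and EFNA1 were at 12.6 and 12.2 in control and 11.05 and 11.03 in Rg3, with overlapping intervals. In TAM they were at 18.6 and 7.98. EFNB1 took 17.99%, 17.36% and 26.27%. The share of EFNB2 was 7.69% (5.99 to 9.70) in control, 9.86% (8.10 to 11.9) in Rg3 and 2.14% (1.23 to 3.46) in TAM. Receptor reads outnumbered ephrin reads in each library, with 7894 against 845 in control, 6883 against 1014 in Rg3 and 9564 against 746 in TAM. Reads are not corrected for transcript length, and the gap was smaller per length. Summed as CPM per kilobase, the receptors stood at 148 against 32.7 for the ephrins in control. The sums were 105 against 30.2 in Rg3 and 213 against 35.6 in TAM.

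**Figure D4:**
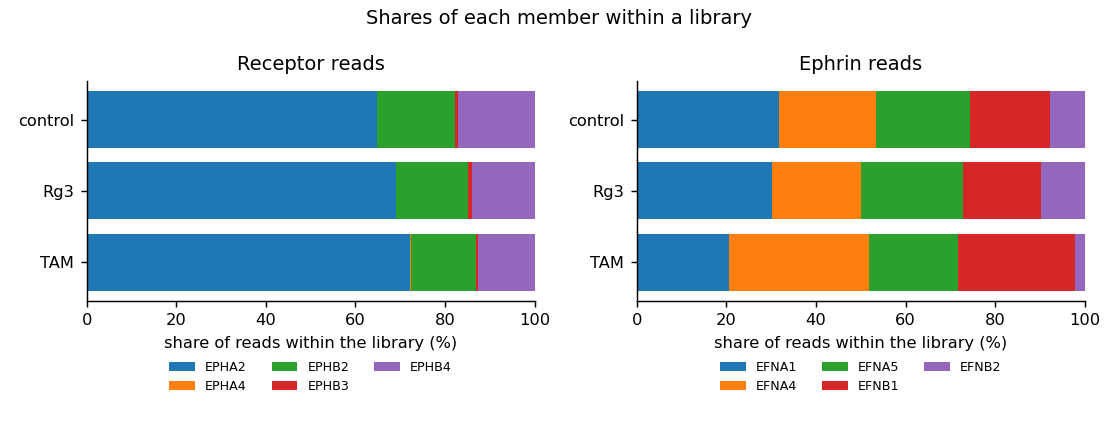
Share of reads (%) of each receptor among the 5 receptors (left) and of each ephrin among the 5 ephrins (right), 1 bar per library. EPHA2 holds 64.9% of receptor reads in control and 72.3% in TAM, and the EFNB2 segment shrinks from 7.69% in control to 2.14% in TAM.

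The rest of the family comprised 12 genes, of which 6 had enough counts to compare. EFNB3, the third ephrin-B ligand, had 64 counts in control, 21 in Rg3 and 20 in TAM, and was lower in both treated libraries, with log2 fold changes of -1.93 (-2.72 to -1.20) and -1.47 (-2.27 to -0.73). EPHB6, a receptor whose kinase domain is inactive, had 177, 55 and 69 counts, and its log2 fold changes were -2.01 (-2.48 to -1.57) with Rg3 and -1.15 (-1.58 to -0.74) with TAM. In contrast to EPHB2 and EPHB4, these genes stayed lower past the limit with the trend removed, at -1.40 and -1.82 for EFNB3 and -1.42 and -1.40 for EPHB6. Both comparisons use the 1 control library. EPHA7, with 110, 133 and 39 counts and a GC content of 37.9%, was lower in TAM (-1.29, -1.86 to -0.75), and at -0.54 with the trend removed it was within the limit, whereas in Rg3 the removal moved it from -0.05 to -0.86. EFNA3 (231, 218 and 278 counts) and EPHA10, another receptor without kinase activity (89, 75 and 85 counts), were within the limit in both comparisons with control. EFNA2, with 12, 7 and 8 counts, was lower past the limit with Rg3 (-1.10) and within it with TAM (-0.38), with intervals that reached 0. With the trend removed, EFNA2 was within the limit with Rg3 (-0.34) and past it with TAM (-0.68). The receptors EPHA1, EPHA3, EPHA5, EPHA6, EPHA8 and EPHB1 had at most 4 counts in any library.

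Of 63 listed partners of Eph receptors and ephrins, 57 were compared for Rg3 and 56 for TAM. With Rg3, 14 were lower (24.6%) and 12 higher (21.1%), near the shares over all genes. Among those with at least 50 counts, NGEF, an exchange factor that EPHA4 activates, went from 1286 counts to 486 (log2 fold change -1.73). CDH1 (-1.29), the cadherin of epithelial junctions, SRC (-1.10) and PICK1 (-0.87), a PDZ protein, were next, and SDCBP (1.18), a PDZ protein that binds ephrin-B tails, ABL2 (0.98), PIK3R1 (0.98) and ROCK2 (0.97), a kinase that acts on the cytoskeleton, were the highest. With the trend removed, NGEF (-1.26), CDH1 (-1.33) and ABL2 (0.62) stayed past the limit, while SRC (-0.56), PICK1 (-0.29), SDCBP (0.41), PIK3R1 (0.29) and ROCK2 (0.27) were within it. With TAM, 25 were lower (44.6%) and 3 were higher (5.36%), where 23.5% and 17.4% of all genes were. The lowest at that depth were CDH1 (-3.72, from 76 counts to 5), L1CAM (-2.22), an adhesion molecule that Eph kinases phosphorylate, ROCK2 (-1.97) and ROCK1 (-1.55). PARD6A (1.30), SHB (0.87) and MMP14 (0.68), a membrane protease that cleaves EPHA2, were higher. With the trend removed, SHB (0.44) and MMP14 (0.39) were within the limit, and the other 5 named for TAM stayed past it. With the trend removed, 13 of 55 partners (23.6%) were lower with TAM and 1 higher, where 15.8% and 13.0% of all genes were. In TAM against Rg3 the lowest were ROCK2 (-2.94), PIK3R1 (-2.37), ROCK1 (-2.17) and ABL2 (-2.00), and the highest were NGEF (1.75), SHB (1.67), PARD6A (1.66) and MMP14 (1.55). Of these 8, SHB (0.58) and PARD6A (0.48) were within the limit with the trend removed.

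**Figure D5:**
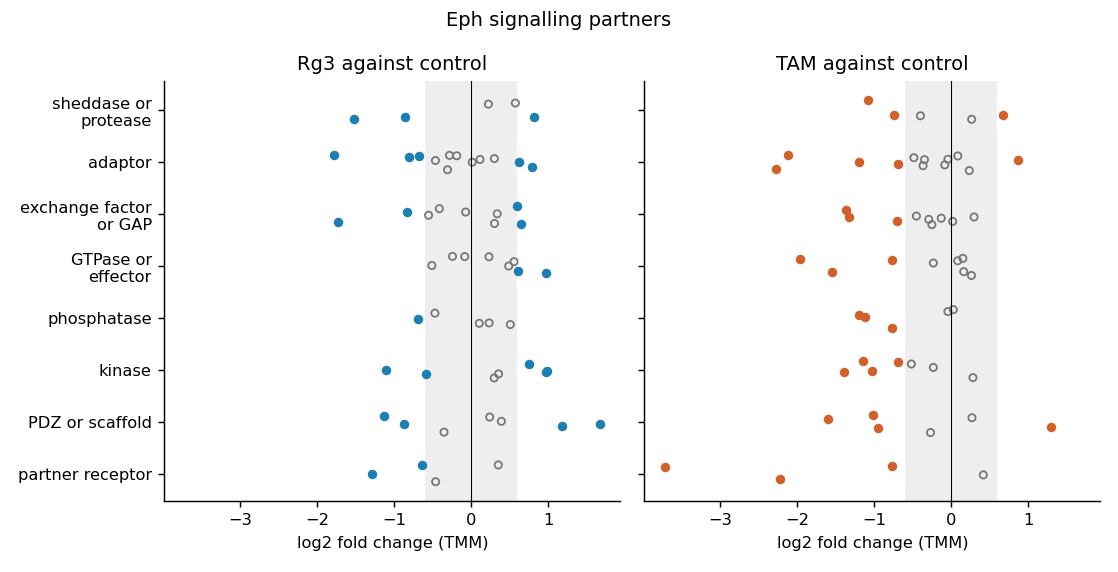
Log2 fold changes (TMM) of partners of Eph receptors and ephrins by role in Rg3 (left) and TAM (right) against control; filled points are past 1.5-fold, open points are within the grey band, and vertical positions within a role are spread for legibility. With TAM, 25 partners lie left of the band and 3 right of it, and with Rg3 the counts are 14 and 12.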

How the data were processed

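Total RNA of PANC-1 cells was sequenced on the Ion Proton platform. The methods name FAST-QC, TopHat and MAQ, and the submitters' processing notes name GRCh38. The annotation, the counting tool and the use of strand were not given in the sources used here. The authors deposited raw read counts per gene symbol, and every column belonged to a library.

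TMM factors (edgeR 4.0.16, R 4.3.3) were set over the 3 libraries, and were 1.02 for control, 1.12 for Rg3 and 0.879 for TAM. A fold used 3 in place of a smaller count, and a gene was compared if either count reached 10. Limma, which the methods name, cannot be run without replicates, so that its fold limit alone was applied. GC content and length came from the longest GENCODE 29 transcript (86.6% of genes compared for Rg3, 87.2% for TAM). Loess (span 0.3) gave the trend. Promoters came from RefSeq (GRCh38.p14), and the first start listed was used. Alternatives were library totals, DESeq2 1.42.0 size factors, other count minimums (1 or 50) and fold limits (2), a binomial test on reads, and edgeR's exact test with assumed variation. The steps were tested on simulated data. The members and lists were chosen with earlier results of these data known, and the motifs after the values were seen. Every member and every other gene of the family is named, as are the 4 partners highest and lowest past the limit with at least 50 counts in each comparison.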

Additional observations from a re-analysis of the deposited data

How the results depend on the processing

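No paired analysis was possible because a condition is a single library, and none could be left out. With library totals, 1 of the 9 compared members (EPHB4) was lower with Rg3 and 0 were higher with TAM. In TAM against Rg3, 3 were lower and 1 higher. DESeq2's size factors called 3 of the 9 members higher with TAM, which were EPHA2, EFNB1 (0.61, from 0.57) and EFNA4 (0.60, from 0.57). Relative to these factors, TMM moved every log2 fold change with TAM by -0.03. Without the GC and length trend, 0 members were lower with Rg3, 3 were lower and 2 higher in TAM against Rg3, and EFNA4 (-0.25) and EFNB1 (-0.24) reversed there. Of 56 partners, 6 (10.7%) were then lower and 3 (5.36%) higher with Rg3, where 10.1% and 8.59% of all genes were. With TAM, 13 of 55 (23.6%) were lower and 1 higher, where 15.8% and 13.0% of all genes were. A fold limit of 2 left 0 members lower with Rg3, 1 lower and 0 higher with TAM, and 1 lower and 1 higher in TAM against Rg3. At that limit, 6 partners were lower and 2 higher with Rg3, and 17 lower and 1 higher with TAM. The shares of all genes were not counted at a fold limit of 2, with library totals or size factors, or with an assumed variation.

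With an assumed variation of 0.2 between cultures, 0 members were lower with Rg3, 1 was lower and 0 higher with TAM, and 1 was higher in TAM against Rg3, with 1 partner lower and 0 higher with Rg3 and 4 lower and 0 higher with TAM. With 0.4, each of these counts, and that of members lower in TAM against Rg3, was 0. No count moved by over 1.5 times with another count minimum or with the binomial test on reads. Per coding length, 3 of 10 members kept their rank in control, 4 in Rg3 and 3 in TAM. Over the whole family of 22 genes, EPHA2 took 62.0%, 66.5% and 70.8% of receptor reads and EFNB2 5.64% and 7.94% of ephrin reads in control and Rg3. Depth limited EPHA4 and the 6 other receptors with at most 4 counts.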

Other observations

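Ratios of reads within a library do not depend on the scaling, but they are not corrected for the GC and length trend. The pairs below were picked after the values were seen. EFNB2 had 0.428 reads for each read of EFNB1 in control (exact 95% counting interval 0.315 to 0.575), 0.568 in Rg3 (0.440 to 0.730) and 0.0816 in TAM (0.0458 to 0.136). The TAM interval lay below those of control and Rg3. With the trend removed, the log2 fold changes of EFNB2 and EFNB1 with TAM were -1.68 and 0.22. EFNA1 had 1.48 reads per read of EFNA4, a transcript of like GC content (58.5% and 58.2%), in control (1.22 to 1.79), 1.52 in Rg3 (1.27 to 1.83) and 0.654 in TAM (0.530 to 0.805). EPHB3 had 0.0430 reads per read of EPHB4 in control (0.0325 to 0.0559), 0.0602 in Rg3 (0.0453 to 0.0785) and 0.0222 in TAM (0.0145 to 0.0324), where the intervals of control and TAM just failed to overlap. EPHB4 and EPHB2 had nearly even numbers of reads in control, with a ratio of 0.990 (0.918 to 1.07). Their ratio was 0.873 in Rg3 (0.800 to 0.953) and 0.869 in TAM (0.804 to 0.939). These 2 transcripts differ in GC content (60.8% and 55.6%) and length. As CPM per kilobase of the longest transcript, EPHB4 was at 23.2 and EPHB2 at 11.0 in control. Without the trend, their log2 fold changes were -0.22 and -0.32 with Rg3, and -0.11 and 0.72 with TAM.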
